A study of Mus musculus with 35 samples.

Results

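Macrophage transcripts were followed in the mouse aorta through 9 genes: Csf1r, Csf1, Il34, Cx3cr1, Ccr2, Adgre1, Mpeg1, Lyz2 and Aif1. They were taken by symbol, 1 row each, from a table of 14174 genes, and all 9 were found and passed the filter on low values, as did 14157 genes in all. Total RNA of whole aortas, cut from the root to the iliac bifurcation with the surrounding fat removed after perfusion, was sequenced in 35 libraries. The mice were C57BL/6 and of 3 kinds: wild type (WT), deficient in apolipoprotein E (EKO), and EKO with overexpressed human apoA-I (EKO/hA-I). ApoA-I is the chief protein component of high-density lipoprotein. EKO/hA-I mice therefore lack apolipoprotein E as EKO mice do, and the promoter behind the human gene is not given in the sources used here. Feeding began at 8 weeks of age with chow or Western diet (WD) and lasted 6 weeks, to an age of 14 weeks, or 22 weeks, to an age of 30 weeks. The 3 genotypes, 2 diets and 2 durations make 12 groups. Each has 3 libraries apart from the EKO/hA-I chow group at 6 weeks with 2. The labels give 8 mice per dietary group, and whether a library is 1 aorta or several is not given in the sources used here.

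Macrophages depend on the receptor tyrosine kinase encoded by Csf1r, which signals for survival and growth after binding colony-stimulating factor 1 (Csf1) or interleukin-34 (Il34), ligands made mostly by other cells. Monocytes reach the vessel wall through the chemokine receptors encoded by Ccr2 and Cx3cr1, and in plaques of mice lacking apolipoprotein E they become macrophages that take up lipoprotein. Adgre1 encodes the surface protein F4/80, Mpeg1 encodes perforin-2, a pore-forming protein of phagocytes, Lyz2 encodes lysozyme of myeloid cells, and Aif1 encodes the actin-binding protein IBA1. These last 4 genes are used as macrophage markers.

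Values are the authors' normalised signal, and groups are given as mean ± SD over their libraries. Between 6850000 and 25300000 reads stood behind a library, as inferred from the step between its lowest values. The lowest member values rested on few reads: 18 for Aif1, 19 for Il34, 26 for Cx3cr1 and 28 for Ccr2, against 841 for Lyz2. Apoe, the gene missing in EKO mice, was 416 or more in all 12 WT libraries and 29.7 or less in the 23 others. Replicate 3 of WT on WD for 22 weeks is WT by its title and EKO by its genotype tag. It was kept as WT, and its Apoe level was 540.4. Markers of neighbouring tissue varied between libraries, with Ucp1 of brown fat from 603 to 9750.3 and Acta1 of skeletal muscle from 1.01 to 767. Y-linked transcripts were low in 12 of the 35 libraries, where 4 such genes averaged 0.0447 to 1.33, against 38.2 to 86.7 in the other 23. These 12 were spread unevenly, with 2 in EKO and 0 in EKO/hA-I among the chow groups at 22 weeks (3 libraries each) and 1 in each of the other 10 groups. Differences are log2 fold changes of value plus 1, ± SE, from limma in 1 fit of all groups, and a gene is called where the adjusted p over all 14157 genes is under 0.05. Each p-value therefore reflects the spread among these libraries alone, which may in part be technical. Ranges of 2 groups of 3 libraries lie apart for many genes. Where given below, the share apart in 1 direction is 12.3% to 23.7% of all genes. Separation of ranges alone is therefore only a description. Where markers of a cell type are counted below, 1 call in a short list can be near the share of all genes called. Such a call is not read as a shift of that cell type.

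Across the 12 groups, 7 of the 9 genes had their highest mean in EKO aortas after 22 weeks of WD, and these 7 separated from every library of the next group. Mpeg1 spanned the widest range of group means, 65.1-fold, followed by Lyz2 with 39.0-fold, Adgre1 with 17.7-fold, Cx3cr1 with 8.58-fold, Csf1r with 7.96-fold, Ccr2 with 6.78-fold and Aif1 with 6.22-fold. The ligand genes moved far less, by 2.32-fold for Il34 and 1.59-fold for Csf1. Replicate 3 of WT on chow for 22 weeks held the lowest value of those 7 genes. In bulk tissue, fewer cells of a type and less RNA per cell cannot be told apart.

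**Figure D1:**
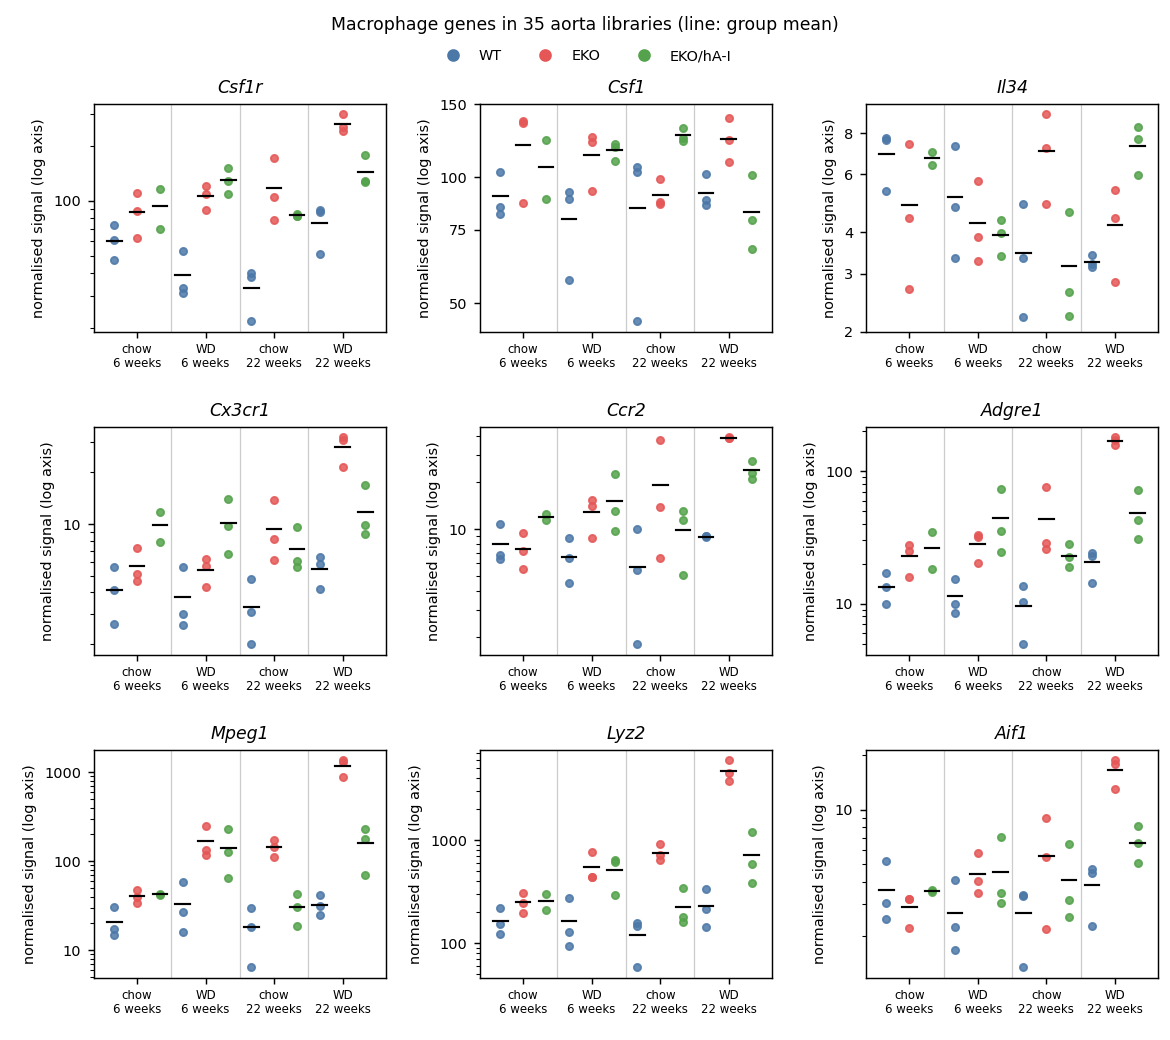
Normalised signal of the 9 genes (log axis) in each of the 35 libraries, by diet and duration on the horizontal axis and genotype by colour; points are libraries and lines group means. The 3 EKO libraries on WD for 22 weeks sit above the other 32 for Csf1r, Adgre1, Mpeg1 and Lyz2, which is not seen for Csf1 or Il34.

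The receptor gene Csf1r was measured at 243, 254 and 298 in the EKO libraries on WD for 22 weeks. The next group by mean was EKO/hA-I on WD for 22 weeks with 144 ± 28.9, followed by EKO/hA-I on WD for 6 weeks with 129.8 ± 21.3 and EKO on chow for 22 weeks with 118 ± 48.4. Below these came EKO on WD for 6 weeks with 106 ± 15.8, EKO/hA-I on chow for 6 weeks with 93.0 ± 33.0, EKO on chow for 6 weeks with 87.1 ± 23.9 and EKO/hA-I on chow for 22 weeks with 83.0 ± 1.18. The 4 lowest means were those of WT, namely 75.6 ± 21.5 on WD for 22 weeks, 60.5 ± 12.9 on chow for 6 weeks, 39.1 ± 12.1 on WD for 6 weeks and 33.3 ± 9.97 on chow for 22 weeks. Only the step from the first to the second group was free of overlap, and every other pair of neighbours in this order shared part of its range. Exons of Csf1r overlap those of Hmgxb3 on the opposite strand, and whether the counting used strand is not given in the sources used here.

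Csf1, the main ligand, showed a flat profile. Its means ran from 126 ± 4.76 in EKO/hA-I on chow for 22 weeks and 124 ± 15.1 in EKO on WD for 22 weeks to 82.7 ± 17.3 in EKO/hA-I on WD for 22 weeks and 79.4 ± 19.5 in WT on WD for 6 weeks. The other 8 group means lay between 84.6 and 119, and no 2 neighbours in the order had ranges apart. Groups further apart in it could separate, as EKO/hA-I on chow and on WD for 22 weeks did. The lowest single value, 45.2, was replicate 2 of WT on chow for 22 weeks, and the highest, 139, was replicate 3 of EKO on WD for 22 weeks.

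Il34, the second ligand, varied without a clear order of genotypes. Its highest means were 7.33 ± 1.23 in EKO/hA-I on WD for 22 weeks, 7.09 ± 2.13 in EKO on chow for 22 weeks and 6.90 ± 1.34 in WT on chow for 6 weeks. Its lowest were 3.16 ± 1.27 in EKO/hA-I on chow for 22 weeks and 3.26 ± 0.132 in WT on WD for 22 weeks, and EKO on WD for 22 weeks stood eighth with 4.21 ± 1.28. Neighbouring groups overlapped throughout. The signal was taken as not already per length, which the sources used here do not state. Per kilobase of transcript, Csf1 then exceeded Il34 in 35 of 35 libraries, with a ratio of 3.30 to 24.1 and a median of 9.38. Exons of Il34 overlap the opposite-strand genes Gm15894 and Gm15895.

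The first comparison set EKO against WT aortas, mice lacking apolipoprotein E being a standard model of plaque formation. On WD at 22 weeks, 7 of the 9 genes were higher in EKO, beside 14.8% of all genes tested. Mpeg1 rose most, then Lyz2 and Adgre1, while both ligand genes missed the threshold. For 8 of the 9, Il34 being the exception, every EKO library lay above every WT library, which held for 23.7% of all genes.

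Csf1r was 243, 254 and 298 in the 3 EKO libraries and 87.0, 89.0 and 50.7 in the 3 WT libraries of this comparison. The groups lay well apart. The difference was 1.83 ± 0.28 (adjusted p = 1.9e-05), a ratio of means of 3.51. Its ligand Csf1 measured 123, 109 and 139 in EKO and 88.4, 102 and 85.8 in WT. The EKO libraries were all higher, yet by a margin that did not pass the test (0.42 ± 0.24, adjusted p = 0.23). Il34 measured 5.37, 4.41 and 2.83 in EKO and 3.41, 3.22 and 3.15 in WT, with 1 EKO library below all WT libraries (0.26 ± 0.29, adjusted p = 0.58).

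Of the chemokine receptors, Ccr2 stood at 38.9, 38.6 and 39.1 in EKO and 8.99, 8.99 and 8.84 in WT. The libraries of each group were close together, and the groups did not overlap. The gain was 2.00 ± 0.45 (adjusted p = 0.0015). Cx3cr1, the fractalkine receptor gene, stood at 21.6, 31.9 and 30.8 in EKO and 4.21, 6.45 and 5.86 in WT, a gain of 2.16 ± 0.32 (adjusted p = 1e-05). No WT library came near the lowest EKO one. Exons of Cx3cr1 overlap the opposite-strand gene Gm33858.

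Of the marker genes, Mpeg1, Lyz2 and Adgre1 moved furthest. Mpeg1 was 1298, 891 and 1360.2 in EKO and 31.0, 41.3 and 25.0 in WT, a difference of 5.15 ± 0.50 (adjusted p = 1.5e-08) and a ratio of means of 36.5. Lyz2 was 4509, 3760.2 and 5935 in EKO and 215, 335 and 146 in WT, a difference of 4.40 ± 0.45 (adjusted p = 2.6e-08) and a ratio of 20.4. No library of the other group came near in either gene. Adgre1 was 180.2, 158 and 173 against 22.7, 24.2 and 14.4, a difference of 3.03 ± 0.41 (adjusted p = 2.6e-06). Aif1 was 13.1, 18.7 and 18.01 against 4.72, 4.47 and 2.28, a difference of 1.90 ± 0.37 (adjusted p = 0.00034). These 7 calls held when any 1 of the 6 libraries was left out. Lyz2 shares 95% of its coding bases with its neighbour Lyz1, whose value also rose here (3.40 ± 0.40, adjusted p = 2.6e-07), so reads may have been split between the copies.

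**Figure D2:**
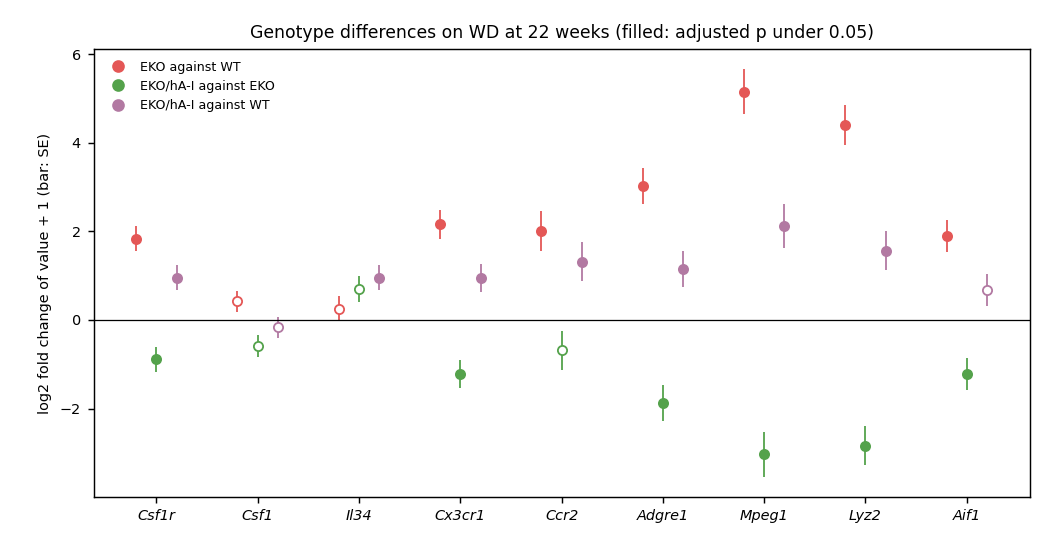
Log2 fold change of value + 1 (bar: SE, n = 3 per group) of the 9 genes in 3 comparisons of genotypes on WD at 22 weeks; filled points have an adjusted p under 0.05. EKO against WT is highest for Mpeg1 (5.15) and Lyz2 (4.40), and EKO/hA-I against EKO is lowest for the same genes (-3.03 and -2.84).

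The stretch of 250 bases before the RefSeq start site (build GRCm38.p6) is printed for 4 of the 9 genes: Mpeg1 and Lyz2, which changed most in this comparison, and Aif1 and Csf1, whose windows held a motif. Such windows were used for 6 of the 9 genes. None was found by symbol for Il34 or Adgre1, and Csf1r was left out of this search. Capitals mark a match to 1 of 4 short motifs sought on both strands.
Mpeg1 (chr19:12460520-12460769, + strand): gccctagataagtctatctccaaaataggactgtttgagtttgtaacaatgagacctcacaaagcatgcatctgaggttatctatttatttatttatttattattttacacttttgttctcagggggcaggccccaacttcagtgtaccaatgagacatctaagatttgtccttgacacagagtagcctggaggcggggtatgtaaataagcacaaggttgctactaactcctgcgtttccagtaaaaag
Lyz2 (chr10:117282273-117282522, - strand): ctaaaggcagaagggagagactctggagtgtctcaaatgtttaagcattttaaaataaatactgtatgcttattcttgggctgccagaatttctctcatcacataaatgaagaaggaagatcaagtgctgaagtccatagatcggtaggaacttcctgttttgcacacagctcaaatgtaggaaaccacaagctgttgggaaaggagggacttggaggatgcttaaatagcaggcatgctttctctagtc
Aif1 (chr17:35176053-35176302, - strand): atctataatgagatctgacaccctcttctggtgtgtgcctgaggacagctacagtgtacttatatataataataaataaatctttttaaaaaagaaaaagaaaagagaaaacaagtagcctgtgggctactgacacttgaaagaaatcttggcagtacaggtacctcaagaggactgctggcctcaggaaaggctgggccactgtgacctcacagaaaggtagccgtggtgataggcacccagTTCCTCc
Csf1 (chr3:107760470-107760719, - strand): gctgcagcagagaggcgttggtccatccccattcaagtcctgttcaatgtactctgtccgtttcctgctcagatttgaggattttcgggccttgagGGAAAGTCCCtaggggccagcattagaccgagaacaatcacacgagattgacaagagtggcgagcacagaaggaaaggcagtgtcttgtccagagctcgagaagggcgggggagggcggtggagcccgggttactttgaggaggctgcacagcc
The motifs were GAGGAA, the core bound by the macrophage factor PU.1, found in 23.3% of 32851 windows of this length, TTGCNNAA of C/EBP factors in 9.56%, TGANTCA of AP-1 in 6.75% and the NF-kB motif, 10 letters with 1 of them free, in 0.356%. Aif1 held a PU.1 core on the other strand 7 bases before the start. Csf1 held the NF-kB motif on the other strand 154 bases before the start. Neither Mpeg1 nor Lyz2 held any of the 4 in this window, nor did Cx3cr1 or Ccr2, which says only that these letters are not there.

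On chow at 22 weeks, 7 genes were again higher in EKO than in WT, beside 7.35% of all genes. Csf1r was 172, 78.2 and 105 in EKO and 38.0, 40.02 and 21.8 in WT (1.77 ± 0.28, adjusted p = 0.00021). Mpeg1 was 174, 112 and 143 against 18.2, 29.8 and 6.42 (3.11 ± 0.50, adjusted p = 0.00023). Lyz2 was 921, 716 and 639 against 147, 159 and 58.8 (2.74 ± 0.45, adjusted p = 0.00024). These 3 genes were among 6 whose groups did not overlap, beside 12.3% of all genes. Adgre1 rose by 1.99 ± 0.41 (adjusted p = 0.002), Cx3cr1 by 1.26 ± 0.32 (adjusted p = 0.009) and Ccr2 by 1.48 ± 0.45 (adjusted p = 0.025). Replicate 1 of EKO carried much of the Ccr2 gain, with values of 37.8, 6.52 and 13.9 in EKO that overlapped the 5.44, 9.96 and 1.81 of WT. Il34 was called on this diet, at 9.15, 7.24 and 4.89 against 2.22, 4.86 and 3.34 (0.86 ± 0.29, adjusted p = 0.043), with no overlap between groups. Csf1 (0.20 ± 0.24, adjusted p = 0.62) and Aif1 (0.74 ± 0.37, adjusted p = 0.18) were not called. Without WT replicate 3 or without EKO replicate 1 the calls fell to 4, those of Csf1r, Adgre1, Mpeg1 and Lyz2, and Il34 also lost its call without WT replicate 1 (adjusted p = 0.2) or EKO replicate 2 (0.089). In a fit of these 2 groups alone 0 passed, with adjusted p from 0.078 for Lyz2 to 0.33 for Ccr2, and the Il34 call also ended with terms for brown fat and skeletal muscle (0.80, adjusted p = 0.056) or for low Y-linked transcripts (0.055). Of 6 fibroblast markers 4 were higher in EKO, with sums of 1651 to 2311 against 775 to 1859, as were 2 of 5 white adipocyte, 2 of 2 erythroid, 1 of 6 endothelial and 1 of 7 dendritic cell markers, while 1 of 5 cardiac muscle markers was lower. The dendritic cell marker was Itgax (3.05 ± 0.56, adjusted p = 0.00082), which is also found on macrophages of plaques. The monocyte markers Ly6c2 (1.74 ± 0.49, adjusted p = 0.017), Plac8 (1.70 ± 0.43, adjusted p = 0.0095) and F10 (1.06 ± 0.34, adjusted p = 0.036) were higher too. Neutrophil and B and T cell markers all had higher means in EKO, and none was called. Among them S100a8 averaged 26.7 against 1.28 (adjusted p = 0.15) and Ngp 11.1 against 0.268 (adjusted p = 0.21). Cd79a averaged 9.23 against 1.95 (adjusted p = 0.17). The part of all these markers in the result was not tested.

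After 6 weeks of WD, 3 genes were higher in EKO, beside 3.94% of all genes. Mpeg1 was 251, 133 and 118 in EKO and 26.6, 15.9 and 57.7 in WT (2.40 ± 0.50, adjusted p = 0.0075). Csf1r was 121, 108 and 89.4 against 33.2, 31.0 and 53.1 (1.45 ± 0.28, adjusted p = 0.0052), and Lyz2 was 771, 439.6 and 439 against 128, 93.8 and 277 (1.82 ± 0.45, adjusted p = 0.018). All 3 EKO libraries exceeded all WT libraries in each of these genes. Adgre1 (1.26 ± 0.41, adjusted p = 0.066), Ccr2 (0.87 ± 0.45, adjusted p = 0.24) and Csf1 (0.53 ± 0.24, adjusted p = 0.18) also had ranges apart without passing the test, and 14.1% of all genes were apart in this direction. The count was 0 without WT replicate 1, without EKO replicate 1 and in a fit of these 2 groups alone, where the adjusted p was 0.062 for Csf1r, 0.075 for Mpeg1 and 0.1 for Lyz2. Lyz2 also lost its call without WT replicate 2 (0.082) and with terms for brown fat and skeletal muscle (1.81, adjusted p = 0.063). Fibroblast markers moved with these genes. Of 6 fibroblast markers 5 were higher in EKO (median of the 6, 1.31), and they summed to 2130.3 to 2894 in EKO and 903 to 1280.4 in WT. Of 6 endothelial markers 1 was higher, with sums of 1514 to 2811 and 1432 to 1746. Of 7 dendritic cell markers 1 was higher, Itgax (2.38 ± 0.56, adjusted p = 0.014), which is also found on macrophages of plaques. The part of all these markers in the result was not tested.

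On chow at 6 weeks, 0 of the 9 genes were called by limma, beside 2.27% of all genes called higher and 2.71% lower. The largest difference was that of Mpeg1, with 33.7, 47.3 and 40.1 in EKO and 30.4, 14.8 and 17.2 in WT (0.98 ± 0.50, adjusted p = 0.24). It was the 1 gene of the 9 whose groups did not overlap, beside 12.6% of all genes. At an unadjusted p under 0.05, 0 of the 9 passed, beside 24.3% of all genes.

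**Figure D3:**
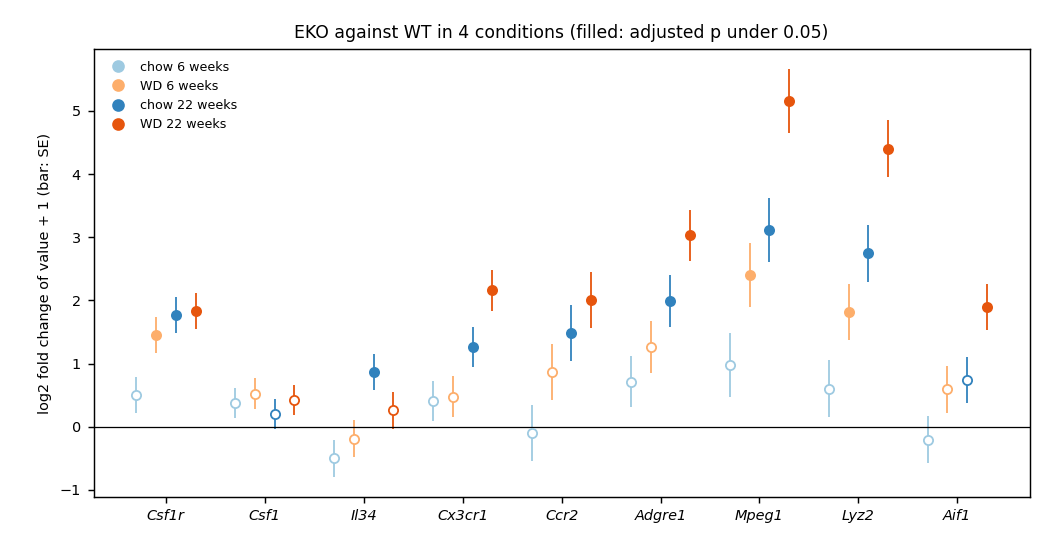
Log2 fold change of value + 1 (bar: SE, n = 3 per group) of EKO against WT for the 9 genes on each diet and duration; filled points have an adjusted p under 0.05. Mpeg1 goes from 0.98 on chow at 6 weeks to 5.15 on WD at 22 weeks, whereas Csf1 stays between 0.20 and 0.53.

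Whether the genotype difference itself grew with time on WD was tested as an interaction, and 3 genes passed, beside 5.87% of all genes higher. The gap between EKO and WT was wider at 22 than at 6 weeks by 2.75 ± 0.71 for Mpeg1 (adjusted p = 0.015), by 2.58 ± 0.63 for Lyz2 (adjusted p = 0.01) and by 1.68 ± 0.45 for Cx3cr1 (adjusted p = 0.019). Adgre1 came close (1.77 ± 0.58, adjusted p = 0.055), while the interaction of Csf1r was 0.39 ± 0.40 (adjusted p = 0.62). Cx3cr1 lost the call without replicate 1 of WT on WD for 6 weeks (adjusted p = 0.073) or replicate 3 of EKO at 6 (0.059) or 22 weeks (0.051), and Mpeg1 without replicate 3 of WT at 6 weeks (0.054). The count was 5 with a pseudocount of 5 and in a fit of the 4 groups alone. In the same test 3 of 6 fibroblast markers and 1 of 7 smooth muscle markers were lower and 1 of 7 dendritic cell markers was higher, and their part was not tested. For the interaction with diet at 22 weeks, limma called 0 genes, beside 6.21% of all genes in either direction, and Mpeg1 had 2.04 ± 0.71 (adjusted p = 0.087) and Lyz2 1.66 ± 0.63 (adjusted p = 0.12). Mpeg1, Lyz2 and Aif1 passed it at an unadjusted p under 0.05, 3 of the 9 beside 20.8% of all genes. Leaving out replicate 3 of WT on chow for 22 weeks gave a count of 2, and a pseudocount of 5 gave 1, as did the terms for brown fat and skeletal muscle.

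The next comparison asked how the same genes differed when human apoA-I was overexpressed in EKO mice. On WD at 22 weeks, 6 of the 9 were lower in the EKO/hA-I libraries, beside 12.9% of all genes: Csf1r, Cx3cr1, Adgre1, Mpeg1, Lyz2 and Aif1. This comparison shares its 3 EKO libraries with the one against WT, so the values stand side by side and are not independent. For 8 genes every EKO/hA-I library lay below every EKO library, against 22.8% of all genes, and Il34 lay above, as did 17.8%.

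Mpeg1 was 69.4, 177 and 230.0 in EKO/hA-I, against 1298, 891 and 1360.2 in EKO. The highest EKO/hA-I library stayed far below the lowest EKO one. The change was -3.03 ± 0.50 (adjusted p = 8.8e-05). Lyz2 was 388, 589.9 and 1196 in EKO/hA-I, a change of -2.84 ± 0.45 (adjusted p = 4.4e-05), and Adgre1 was 42.8, 30.8 and 72.5, a change of -1.87 ± 0.41 (adjusted p = 0.0018). Among the EKO/hA-I libraries replicate 3 was the highest in these 3 genes. Cx3cr1 at 8.70, 9.88 and 16.9 fell by 1.22 ± 0.32 on the log2 scale (adjusted p = 0.0088), Aif1 at 5.08, 8.17 and 6.53 by 1.22 ± 0.37 (adjusted p = 0.022) and Csf1r at 127, 128 and 178 by 0.89 ± 0.28 (adjusted p = 0.03).

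Ccr2, at 23.0, 21.1 and 27.6 in EKO/hA-I, did not pass (-0.69 ± 0.45, adjusted p = 0.29) although its groups were apart. In a fit of these 2 groups alone Ccr2 was called (-0.69, adjusted p = 0.016). The ligand genes pointed in opposite directions without passing: Csf1 was 79.3, 67.4 and 101 in EKO/hA-I (-0.59 ± 0.24, adjusted p = 0.082), and Il34 was 7.68, 8.35 and 5.97 (0.70 ± 0.29, adjusted p = 0.09). With a block for the replicate number, Il34 was called (0.70, adjusted p = 0.046). The calls of Adgre1, Mpeg1 and Lyz2 held when any 1 library was left out. Without EKO/hA-I replicate 1 the count was 3, with adjusted p of 0.11 for Csf1r, 0.06 for Cx3cr1 and 0.097 for Aif1. Csf1r also lost its call without EKO replicate 1 (0.066), EKO replicate 3 (0.1) or EKO/hA-I replicate 2 (0.1), and Aif1 without EKO replicate 2 (0.055) or 3 (0.067).

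Skeletal muscle and brown fat transcripts moved with this comparison. Of 7 skeletal muscle markers 5 were higher in EKO/hA-I, and they summed to 811 or more in each EKO/hA-I library and to 107 or less in each EKO one. Of 6 brown fat markers 2 were higher, with sums of 5588 to 7132 and 1203 to 4888. With a term for each of these tissues in the fit, Csf1r was no longer called (-0.89 ± 0.28 became -0.98, adjusted p = 0.14), and the other 5 calls held. White adipocyte markers (1 of 5 higher), fibroblast markers (1 of 6 lower) and dendritic cell markers (1 of 7 lower, Itgax) were also called, beside 12.9% of all genes lower. Their part was not tested. Markers of smooth muscle (0 of 7 called), B and T cells (0 of 8) and neutrophils (0 of 4) did not pass the test in either direction. Neutrophil markers ranged from 6.48 to 179 in sum over the EKO/hA-I libraries, against 11.1 to 36.2 for EKO.

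Against WT on WD at 22 weeks, 7 genes were higher in EKO/hA-I, beside 8.51% of all genes. Mpeg1 was 159 against 32.4 by mean (2.12 ± 0.50, adjusted p = 0.0069), Lyz2 was 725 against 232 (1.56 ± 0.45, adjusted p = 0.019) and Csf1r was 144 against 75.6 (0.95 ± 0.28, adjusted p = 0.023). Il34 differed by 0.96 ± 0.29 (adjusted p = 0.024), and Ccr2 by 1.32 ± 0.45 (adjusted p = 0.042). Cx3cr1 (0.94 ± 0.32, adjusted p = 0.042) and Adgre1 (1.16 ± 0.41, adjusted p = 0.049) passed narrowly, and Csf1 (-0.17 ± 0.24, adjusted p = 0.65) and Aif1 (0.68 ± 0.37, adjusted p = 0.2) did not. These calls were fragile: leaving out any 1 of the 6 libraries left 1 to 4 of them. The Mpeg1 call was the one that held throughout those omissions, and 0 passed with terms for brown fat and skeletal muscle. The differences of Mpeg1 (2.03 ± 0.64, adjusted p = 0.081), Lyz2 (1.56 ± 0.56, adjusted p = 0.12) and Csf1r (0.88 ± 0.36, adjusted p = 0.17) stayed about as large in that fit, with wider errors, and the other 4 were 0.64 to 0.91 (adjusted p = 0.3 to 0.42). Of the smooth muscle markers, 6 of 7 were below their WT level, and their sum was 3672 to 9307 against 14900.0 to 24662, a shift whose part in these calls was not tested. The same holds for 2 of 6 endothelial, 2 of 7 dendritic cell, 1 of 6 brown fat and 1 of 7 skeletal muscle markers that were higher, 1 of 2 erythroid markers that was lower, and white adipocyte markers (1 higher and 1 lower of 5).

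On chow at 22 weeks, 3 genes were lower in the EKO/hA-I than in the EKO libraries, beside 14.9% of all genes. Mpeg1 was 18.9, 42.3 and 30.4 in EKO/hA-I (-2.24 ± 0.50, adjusted p = 0.0028) and Lyz2 was 161, 180.3 and 342 (-1.80 ± 0.45, adjusted p = 0.0052). Neither overlapped EKO. Il34 was 2.63, 4.61 and 2.24, also below all 3 EKO libraries (-0.97 ± 0.29, adjusted p = 0.015). Csf1r, at a narrow 82.6, 84.4 and 82.1, did not pass (-0.43 ± 0.28, adjusted p = 0.26), and Csf1, at 123, 125 and 132, was above every EKO library without passing (0.47 ± 0.24, adjusted p = 0.13). In a fit of these 2 groups alone Csf1 was called (0.47, adjusted p = 0.021). Il34 lost its call without EKO replicate 1 (0.081) or EKO/hA-I replicate 3 (0.086). Tissue markers differed here too: 5 of 5 white and 4 of 6 brown adipocyte markers were lower in EKO/hA-I, brown fat sums being 1536 to 1909.9 against 3875 to 7114, and with terms for brown fat and skeletal muscle 0 of the 3 passed. The differences in that fit were -2.10 ± 0.62 for Mpeg1 (adjusted p = 0.056) and -1.80 ± 0.55 for Lyz2 (adjusted p = 0.063), about as large as without the terms, and -0.70 ± 0.34 for Il34 (adjusted p = 0.25). Erythroid (2 of 2 lower), dendritic cell (1 of 7 lower), fibroblast (2 of 6 higher) and smooth muscle (1 of 7 higher) markers were also called, and their part was not tested.

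Against WT on chow at 22 weeks, Csf1r (1.34 ± 0.28, adjusted p = 0.0035), Adgre1 (1.25 ± 0.41, adjusted p = 0.041) and Cx3cr1 (0.94 ± 0.32, adjusted p = 0.049) were higher in EKO/hA-I, beside 6.51% of all genes. Mpeg1 (0.87 ± 0.50, adjusted p = 0.25) and Lyz2 (0.95 ± 0.45, adjusted p = 0.15), the genes with the largest changes elsewhere, were not called. Without any 1 of the 3 EKO/hA-I libraries, or with a pseudocount of 5, the count fell to 1, and in a fit of the 2 groups alone to 0 (adjusted p = 0.076 for Csf1r, 0.17 for Cx3cr1, 0.14 for Adgre1). Without WT replicate 1 or 3 the calls of Cx3cr1 (0.082 and 0.15) and Adgre1 (0.05 and 0.15) also ended, tissue terms left Csf1r alone (Cx3cr1 1.33, adjusted p = 0.069, and Adgre1 1.39, adjusted p = 0.14, were larger than without them), and a term for low Y-linked transcripts ended the Cx3cr1 call (0.053). Csf1, not called in the main fit, was called higher without WT replicate 1 (0.88, adjusted p = 0.023) or 3 (0.86, 0.026). It was also called with a block for the replicate number (0.67, 0.046). All 6 fibroblast markers were higher in EKO/hA-I, with sums of 2904 to 3195 against 775 to 1859, and 2 of 6 endothelial markers were too, while 4 of 6 brown fat and 1 of 5 cardiac muscle markers were lower. Apart from the brown fat term, their part was not tested.

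At 6 weeks limma called 0 of the 9 genes between EKO/hA-I and EKO, both on WD, where 0.0706% of all genes passed, and on chow, where 0.0777% did. At an unadjusted p under 0.05 the count was 1 on WD, Cx3cr1 (0.76 ± 0.32, adjusted p = 0.87), and 0 on chow, beside 5.28% and 13.1% of all genes. Mpeg1 on WD for 6 weeks was 228, 126 and 64.5 in EKO/hA-I and 251, 133 and 118 in EKO, with wide overlap (-0.36 ± 0.50, adjusted p = 1).

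The difference between EKO/hA-I and EKO on WD itself changed with duration for 4 genes, beside 4.51% of all genes lower. The interaction was -2.72 ± 0.63 for Lyz2 (adjusted p = 0.0093), -2.67 ± 0.71 for Mpeg1 (adjusted p = 0.025), -2.39 ± 0.58 for Adgre1 (adjusted p = 0.013) and -1.97 ± 0.45 for Cx3cr1 (adjusted p = 0.0085). Csf1r had -1.17 ± 0.40 (adjusted p = 0.099). The calls of Lyz2 and Cx3cr1 held when any 1 of the 12 libraries was left out, while without replicate 2 of EKO/hA-I on WD for 6 weeks those of Adgre1 (0.051) and Mpeg1 (0.051) ended. Mpeg1 lost its call in 7 of the 12 omissions, with adjusted p up to 0.11 without replicate 1 of EKO/hA-I on WD for 22 weeks, in a fit of the 4 groups alone (0.079) and with the tissue terms (-2.88, adjusted p = 0.067). Of 6 fibroblast and 7 dendritic cell markers 1 each was lower in this test, and their part was not tested.

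The same difference was tested for an interaction with diet, where 1 of the 9 genes was called higher and 1 lower. At 22 weeks EKO/hA-I minus EKO was higher on WD than on chow by 1.67 ± 0.41 for Il34 (adjusted p = 0.0033) and lower by 1.06 ± 0.34 on the log2 scale for Csf1 (adjusted p = 0.017), beside 15.6% of all genes higher and 18.6% lower. Neither count is above the share among all genes. No receptor or marker gene of the 9 passed this test in the main fit. Adgre1 passed without replicate 1 of EKO on chow (-1.62, adjusted p = 0.029), and Cx3cr1 with a pseudocount of 5 (-0.76, 0.05 after rounding). Csf1 lost its call without EKO/hA-I replicate 2 on WD (0.052), and with terms for brown fat and skeletal muscle neither was called (Il34 1.00, adjusted p = 0.5; Csf1 -0.07, adjusted p = 0.96). Skeletal muscle (7 of 7 higher), brown fat (5 of 6 higher), white adipocyte (5 of 5 higher), endothelial (1 of 6 higher), fibroblast (3 of 6 lower) and smooth muscle (1 of 7 lower) markers passed the same test.

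Within each genotype, WD was then compared with chow. In EKO at 22 weeks 7 genes were higher on WD, beside 13.9% of all genes: Mpeg1 by 3.04 ± 0.50 (adjusted p = 8.9e-05), Lyz2 by 2.63 ± 0.45 (adjusted p = 0.00012), Adgre1 by 2.12 ± 0.41 (adjusted p = 5e-04), Aif1 by 1.56 ± 0.37 (adjusted p = 0.0035) and Cx3cr1 by 1.53 ± 0.32 (adjusted p = 0.0011). Csf1r rose by 1.23 ± 0.28 (adjusted p = 0.003) and Ccr2 by 1.29 ± 0.45 (adjusted p = 0.044). Csf1 had 0.44 ± 0.24 (adjusted p = 0.21) and Il34 -0.63 ± 0.29 (adjusted p = 0.13). The Ccr2 call was lost without EKO chow replicate 2 (0.28) or 3 (0.12), without any 1 of the WD libraries (0.075 to 0.12), with a pseudocount of 0.1 (0.058) and in a fit of the 2 groups alone (0.15). The other 6 held in each of those fits. Fat and fibroblast markers differed between the same groups. Of 5 white adipocyte markers 3 were lower on WD, with sums of 1470.1 to 1974 against 3263 to 5764, and 2 of 6 fibroblast markers were higher, with sums of 3069 to 3809 against 1651 to 2311. Of 7 dendritic cell markers 1 was higher. Their part in the result was not tested.

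In EKO/hA-I at 22 weeks, WD went with higher Mpeg1 (2.25 ± 0.50, adjusted p = 0.002), Lyz2 (1.59 ± 0.45, adjusted p = 0.0077), Ccr2 (1.28 ± 0.45, adjusted p = 0.026), Il34 (1.03 ± 0.29, adjusted p = 0.0075) and Csf1r (0.77 ± 0.28, adjusted p = 0.034), beside 20.7% of all genes. Csf1 was lower on WD, with 79.3, 67.4 and 101 against 123, 125 and 132 on chow (-0.62 ± 0.24, adjusted p = 0.04), beside 17.5%. All 3 WD libraries lay below all 3 chow libraries, and the share of all genes apart this way is not given here. These same groups also differed in tissue markers: 7 of 7 skeletal muscle markers and 5 of 6 brown fat markers were higher on WD, and 7 of 7 smooth muscle markers were lower. With terms for brown fat and skeletal muscle, 0 of the 6 passed. Mpeg1 (2.07 ± 0.82, adjusted p = 0.6) and Lyz2 (1.58 ± 0.73, adjusted p = 0.65) stayed about as large in that fit, with wider errors. The other values were smaller, 0.64 for Csf1r, 0.51 for Il34 and 0.34 for Ccr2, and Csf1 turned to 0.09 (adjusted p = 0.8 to 0.96). Endothelial (3 of 6 higher), dendritic cell (3 of 7 higher), white adipocyte (2 of 5 higher), neutrophil (1 of 4 higher) and fibroblast (2 of 6 lower) markers were also called, and their part, like that of smooth muscle, was not tested. Without EKO/hA-I chow replicate 1 or WD replicate 3 the count was 3. The calls of Mpeg1 and Il34 held when any 1 library was left out, and that of Lyz2 ended without WD replicate 3 (0.058). Csf1 and Csf1r each lost the call in 5 of the 6 omissions (0.07 to 0.17 and 0.054 to 0.13) and Ccr2 in 4 (0.05 to 0.15), and Csf1 also with a term for low Y-linked transcripts (0.055).

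In WT at 22 weeks the WD libraries were higher in Csf1r alone (1.16 ± 0.28, adjusted p = 0.038), beside 0.925% of all genes. The values were 87.0, 89.0 and 50.7 on WD and 38.0, 40.02 and 21.8 on chow. The call ended without WT chow replicate 3 (0.14), WD replicate 1 (0.17) or WD replicate 2 (0.19) and in a fit of the 2 groups alone (0.47). Of 6 fibroblast markers 2 were higher on WD, 1 of 5 white adipocyte markers was higher and 1 of 6 brown fat markers lower, and their part was not tested. At 6 weeks limma called 0 genes for diet in WT (beside 1.43% of all genes), EKO (0.0848%) or EKO/hA-I (0.00706%). At an unadjusted p under 0.05 the count was 1 of 9 in WT, 2 in EKO and 1 in EKO/hA-I, beside 17.1%, 20.1% and 3.38% of all genes. In EKO at 6 weeks Mpeg1 had ranges apart and came close (1.95 ± 0.50, adjusted p = 0.062).

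Time on diet was compared within each genotype and diet. In EKO on WD, 7 genes were higher at 22 than at 6 weeks, beside 10.5% of all genes. Lyz2 rose from 549.6 ± 191 to 4735 ± 1105 (3.13 ± 0.45, adjusted p = 1.3e-05), Mpeg1 from 167 ± 73.1 to 1183 ± 255 (2.87 ± 0.50, adjusted p = 0.00017) and Adgre1 from 28.4 ± 7.20 to 170.5 ± 11.3 (2.58 ± 0.41, adjusted p = 5e-05). All 7 had ranges apart, beside 19.5% of all genes. Cx3cr1 rose by 2.17 ± 0.32 (adjusted p = 1.9e-05), Aif1 by 1.71 ± 0.37 (adjusted p = 0.0017), Ccr2 by 1.56 ± 0.45 (adjusted p = 0.018) and Csf1r by 1.32 ± 0.28 (adjusted p = 0.0017). Csf1 (0.13 ± 0.24, adjusted p = 0.78) and Il34 (-0.03 ± 0.29, adjusted p = 0.97) were not called. Ccr2 lost its call without replicate 3 at 6 weeks (0.11) or replicate 1 (0.053) or 3 (0.051) at 22 weeks. Smooth muscle markers were lower at 22 weeks in 3 of 7, with sums of 5685 to 9631 against 11939.9 to 25904, and 1 of 6 fibroblast and 1 of 7 dendritic cell markers were higher. Their part was not tested.

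EKO/hA-I on WD had 0 genes called by limma for duration, beside 0.0706% of all genes in either direction. Csf1 and Il34 passed at an unadjusted p under 0.05, 2 of the 9 beside 20.2% of all genes. In EKO on chow, Mpeg1 (1.79 ± 0.50, adjusted p = 0.011) and Lyz2 (1.61 ± 0.45, adjusted p = 0.011) were higher at 22 weeks, beside 13.3% of all genes. Mpeg1 lost its call without replicate 1 at 22 weeks (0.05), leaving 1, and neither gene passed with the tissue terms, where the differences were 1.60 ± 0.61 for Mpeg1 (adjusted p = 0.11) and 1.61 ± 0.54 for Lyz2 (adjusted p = 0.074). Those are about as large as without the terms. Brown fat (4 of 6), white adipocyte (3 of 5) and dendritic cell (1 of 7) markers were higher at 22 weeks and smooth muscle markers (2 of 7) lower, and apart from brown fat their part was not tested. In WT on WD, Csf1r passed at 0.93 ± 0.28 (adjusted p = 0.048), beside 3.21% of all genes. That call ended without replicate 1 (0.18) or 2 (0.13) at 6 weeks or replicate 1 (0.15) or 2 (0.21) at 22 weeks, in a fit of the 2 groups alone (0.1), with a pseudocount of 5 (0.052), with tissue terms (1.01, adjusted p = 0.23) and with a term for low Y-linked transcripts (0.05). Fibroblast (4 of 6), erythroid (2 of 2), white adipocyte (1 of 5) and B and T cell (1 of 8) markers were higher and endothelial (3 of 6) and brown fat (1 of 6) markers lower in the same comparison, and apart from brown fat their part was not tested. On chow, limma called 0 genes for duration in WT (beside 0.120% of all genes) and in EKO/hA-I (0.00706%). Csf1r and Il34 passed in WT, beside 10.8% of all genes, and Il34 in EKO/hA-I, beside 12.2%, at an unadjusted p under 0.05.

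Within a library, the markers did not simply scale with the receptor gene. The log2 ratio of Lyz2 to Csf1r was 3.89 to 4.31 in the 3 EKO libraries on WD for 22 weeks and 0.96 to 3.19 in the other 32. That of Mpeg1 to Csf1r was 1.81 to 2.42 against -2.13 to 1.06, and that of Adgre1 was -0.78 to -0.43 against -2.25 to -1.05. These 3 ratios were thus higher in that group than in any other library. Ccr2 (-2.93 to -2.64 against -4.03 to -1.92) and Cx3cr1 (-3.49 to -2.99 against -4.53 to -2.55) lay within the spread of the others, as did Aif1 (-4.21 to -3.76 against -5.57 to -3.02). Relative to its receptor, Csf1 was lowest there (-1.22 to -0.98 against -0.92 to 2.24), and so was Il34 (-6.72 to -5.50 against -5.25 to -2.09). The divisor Csf1r was itself highest in this group, so these 2 low ratios are not a separate observation. Csf1 came close to them in EKO/hA-I on WD for 22 weeks (-0.92 to -0.68). Since the signal was taken as not per length, such a ratio of undivided signals is read only across libraries. No test was run on these ratios.

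**Figure D4:**
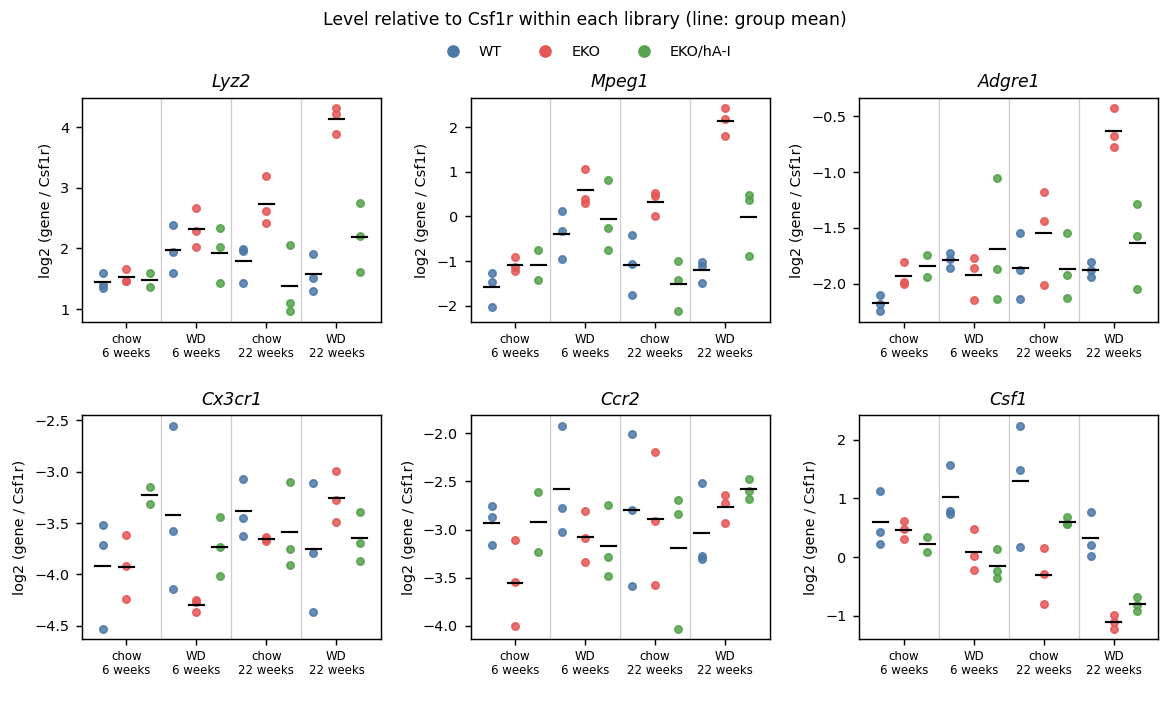
Log2 of each gene's signal over that of Csf1r in the same library, for 6 genes, by diet and duration; points are libraries, lines group means and colours genotypes. EKO on WD at 22 weeks reads 3.89 to 4.31 for Lyz2 and 1.81 to 2.42 for Mpeg1, above all other libraries, while Ccr2 and Cx3cr1 overlap with them.

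Over the 35 libraries, on the log2 scale, the receptor and marker genes ran together and the ligand genes apart. These values are descriptive, since the libraries share groups and differ in depth. Pearson's r was 0.97 for Mpeg1 with Lyz2 and 0.95 for Csf1r with Adgre1 (Spearman's rho 0.95 and 0.96). After the group means were removed the same pairs had 0.86 and 0.88. Other pairs of receptor and marker genes were looser within groups, among them Lyz2 with Aif1 (0.33), Mpeg1 with Aif1 (0.40), Csf1r with Aif1 (0.43) and Cx3cr1 with Mpeg1 (0.46). Csf1 and Il34 had -0.40 over all libraries (rho -0.52) and -0.42 within groups, while Csf1r had 0.45 with Csf1 and 0.10 with Il34.

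Among all genes tested, those closest to each member by Pearson's r over the 35 libraries were as follows, taken from the top 3 of each. Csf1r was nearest to Nfam1 (0.972), Folr2 (0.968) and Adgre1 (0.955). Adgre1 was nearest to Itgam (0.969), the integrin chain CD11b, then Ptpro (0.967) and Cybb (0.966), a subunit of the phagocyte oxidase. Mpeg1 was nearest to the cathepsin gene Ctss (0.99), Cd68 (0.985) and Tyrobp (0.983), an adaptor of myeloid receptors. These genes had r of at least 0.95. Lyz2 was nearest to Tyrobp (0.99), C1qb (0.988), a complement chain, and the Fc receptor gene Fcgr3 (0.985). Cx3cr1 was nearest to Ptpro (0.93), Adgre1 (0.92) and Cybb (0.907), and Ccr2 to Gm21188 (0.953) and Eps8 (0.937). Aif1 was nearest to Ly86 (0.931) and Cd86 (0.924). The ligands had other neighbours: Csf1 was nearest to Kirrel (0.943), Aebp1 (0.93) and Timp2 (0.92), an inhibitor of matrix proteases, and Il34 to Vnn3 (0.77), the asparagine synthetase gene Asns (0.751) and Arxes1 (0.746). By Spearman's rho the top 3 shared 3 genes for Il34, 2 for Csf1r, Adgre1 and Lyz2, 1 for Csf1, Ccr2 and Mpeg1 and 0 for Cx3cr1 and Aif1.

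Other genes of the same pathway were read from lists chosen with earlier results of these data known, and each list is described by counts beside the median over all genes, which was -0.01 for EKO against WT and -0.02 for EKO/hA-I against EKO, both on WD at 22 weeks. Of 19 genes of CSF1 receptor signalling or other receptors of its ligands, 13 were higher and 1 lower in EKO than in WT, with a median of 1.61. Among those with the smallest p were the kinase gene Fgr (3.50 ± 0.28, adjusted p = 7.4e-10) and the adaptor genes Tyrobp (3.83 ± 0.36, adjusted p = 7e-09) and Grb2 (1.10 ± 0.12, adjusted p = 8.7e-08). The 1 that fell was Ptprz1 (-1.80 ± 0.48, adjusted p = 0.0073), a receptor phosphatase that can bind interleukin-34, named after its value was seen. In EKO/hA-I against EKO, 0 were higher and 11 lower, with a median of -0.87, Fgr falling by 1.99 ± 0.28 on the log2 scale.

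Of 7 measured genes for other myeloid growth factors and their receptors, 4 were higher and 1 lower in EKO against WT (median 1.54). The 4 were receptor chains: Csf2rb (3.68 ± 0.33, adjusted p = 3.8e-09) and Csf2ra (3.05 ± 0.27, adjusted p = 4.4e-09) of the receptor for granulocyte-macrophage colony-stimulating factor, Csf3r (2.41 ± 0.37, adjusted p = 1.5e-05) and Il3ra (1.54 ± 0.24, adjusted p = 2.3e-05). The 1 that fell was the ligand gene Flt3l (-0.70 ± 0.21, adjusted p = 0.018), named after its value was seen. In EKO/hA-I against EKO 0 were higher and 3 lower (median -0.50), and Csf3r was not called there (-0.50 ± 0.37, adjusted p = 0.36).

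Ligands of the chemokine receptors were among 12 genes of monocyte recruitment, of which 9 were higher in EKO than in WT (median 2.28). Cx3cl1, which encodes the ligand of the Cx3cr1 product, averaged 139 against 23.6 (2.51 ± 0.30, adjusted p = 4.9e-07). Ccl2 and Ccl7, which encode ligands of the Ccr2 product, averaged 26.5 against 1.75 (3.40 ± 0.42, adjusted p = 7.5e-07) and 16.8 against 1.33 (2.94 ± 0.46, adjusted p = 2.3e-05). In EKO/hA-I against EKO 0 were higher and 5 lower (median -1.26): Cx3cl1 had -2.25 ± 0.30 (adjusted p = 5.5e-06), Ccl2 -2.45 ± 0.42 (adjusted p = 0.00014) and Ccl7 -2.23 ± 0.46 (adjusted p = 0.0011). Thus the transcripts of these ligands were lower in EKO/hA-I. Ccr2 itself did not pass in the fit of all groups, but did with EKO/hA-I and EKO alone (adjusted p = 0.016).

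Of 13 transcription factor genes of the macrophage lineage, 8 were higher in EKO against WT (median 0.82), among them Tfec (2.52 ± 0.24, adjusted p = 1.2e-08), Spi1 (3.28 ± 0.33, adjusted p = 2.4e-08), which encodes PU.1, and Irf5 (2.75 ± 0.30, adjusted p = 7.9e-08). In EKO/hA-I against EKO 0 were higher and 7 lower (median -0.72), with Spi1 at -1.73 ± 0.33 (adjusted p = 0.00046). Of 16 other macrophage markers measured, 15 were higher in EKO against WT (median 3.44) and 15 lower in EKO/hA-I against EKO (median -2.08). The scavenger receptor gene Msr1 had 4.49 ± 0.40 and -3.17 ± 0.40 in the 2 comparisons and Cd68 4.77 ± 0.45 and -3.21 ± 0.45. The summed level of these 16 was 4978 to 7186 in EKO on WD for 22 weeks and at most 1724 in any other library.

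Markers of monocytes and of resident macrophages showed smaller counts. Of 8 monocyte markers 3 were higher in EKO against WT (median 0.75), namely F10 (2.57 ± 0.34), Treml4 (0.98 ± 0.24) and Plac8 (1.57 ± 0.43). In EKO/hA-I against EKO, 1 was lower, F10 (-1.48 ± 0.34, adjusted p = 0.003), and 1 was higher (median 0.12). Of 8 resident macrophage markers 2 were higher in EKO against WT (median 0.25), Folr2 (1.64 ± 0.33, adjusted p = 0.00046) and Mrc1 (1.25 ± 0.33, adjusted p = 0.0069). In EKO/hA-I against EKO, Folr2 was lower (-0.93 ± 0.33, adjusted p = 0.046) and 3 were higher, which were named after their values were seen: Lyve1 (1.18 ± 0.35, adjusted p = 0.02), Cd163 (1.09 ± 0.35, adjusted p = 0.03) and Timd4 (1.18 ± 0.39, adjusted p = 0.036). Lyve1 is also a gene of lymphatic endothelium. Of 7 dendritic cell markers 2 were higher in EKO against WT, beside the 14.8% of all genes, and 1 was lower in EKO/hA-I against EKO, beside 12.9%. Itgax, the integrin chain CD11c, was in both counts (6.24 ± 0.56, adjusted p = 4.3e-09, and -4.34 ± 0.56, adjusted p = 2.8e-06) and is also found on macrophages of plaques; it was named after its values were seen. The part of the skeletal muscle and brown fat transcripts in these list counts was not tested.

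**Figure D5:**
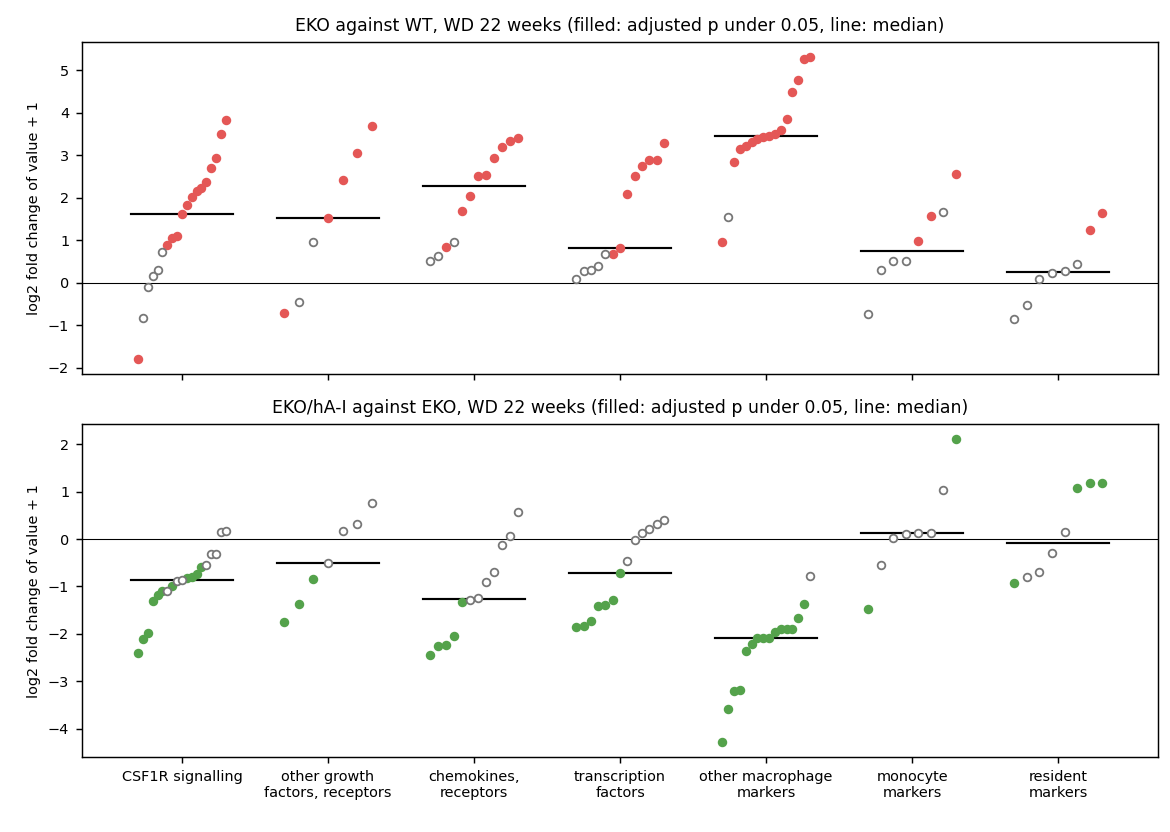
Log2 fold change of value + 1 of every measured gene in 7 lists of macrophage biology, ordered by size within a list, for EKO against WT (upper panel) and EKO/hA-I against EKO (lower panel) on WD at 22 weeks, n = 3 per group; filled points have an adjusted p under 0.05 and lines are medians. The other macrophage markers have medians of 3.44 and -2.08, and the resident markers 0.25 and -0.07. The panels share the EKO libraries.

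Markers of other cells were also compared between EKO and WT after 22 weeks of WD. Of 7 smooth muscle markers 2 were lower in EKO, Myh11 (-1.66 ± 0.49, adjusted p = 0.016) and Lmod1 (-1.36 ± 0.44, adjusted p = 0.028), and the other 5 did not pass (adjusted p = 0.053 to 0.3). Their sum was 5685 to 9631 in EKO against 14900.0 to 24662 in WT. Of 6 endothelial markers 2 were higher, with sums of 1934 to 2073 against 1004 to 1301, and 1 of 6 fibroblast markers was higher, with sums of 3069 to 3809 against 1818 to 2653. Of 5 white adipocyte markers 1 was higher and 1 lower, with sums of 1470.1 to 1974 against 730.0 to 1463. The part of these markers in the result was not tested. B and T cell markers (0 of 8 called) summed to 15.8 to 49.9 in EKO and 15.4 to 152 in WT, brown fat markers (0 of 6) to 1203 to 4888 and 2864 to 5039.8, and skeletal muscle markers (0 of 7) to 22.1 to 107 and 23.1 to 422. With terms for brown fat and skeletal muscle, or a term for low Y-linked transcripts, the 7 member calls of this comparison held.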

How the data were processed

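RNA-seq values of 35 mouse aorta libraries were taken from 1 deposited table of 14174 genes, whose values are a normalised signal per gene made by the authors. The submitters' processing notes list the tools Bowtie 0.12.2, Bowtie2 and RSEM and the builds mm9 and mm8 without saying what each was for, and how the signal was normalised is not given in the sources used here. Column sums were 907500 to 1138000. Between 71.6% and 82.1% of values up to 1.5 lay within 0.02 reads of a whole number, too few to recover counts, so no count model was used. Depth was read from the same steps and limits the precision of the genes with few reads.

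Genes reaching 1 in 3 or more libraries were kept (14157, leaving out 17) and fitted as log2(value + 1), which understates the change of low genes. The fit was limma 3.58.1 in R 4.3.3 with robust, trended variances over all 12 groups. It gave 22 comparisons of 2 groups and 4 interactions, two-sided, with Benjamini-Hochberg adjustment within each comparison. The procedure was tested on simulated data. Sequences came from RefSeq promoters (GRCm38.p6), and copies were aligned with Biopython 1.88 on the GENCODE annotation.

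The 9 genes and all lists were chosen with earlier results of these data known. Named list genes were those with the smallest p for EKO against WT on WD at 22 weeks, up to 4 per list. Same-numbered libraries deviated together in every one of 3 pairs in 2 of the 22 comparisons, 22 against 6 weeks in WT on WD (r 0.13 to 0.34) and in EKO on WD (0.12 to 0.44); the numbers come from the titles, and all calls there held with a replicate block. Other settings were pseudocounts of 0.1 and 5, no filter, rescaling by median ratios, the compared groups alone, each library left out, and terms for tissue markers or low Y-linked transcripts. The human transgene was not analysed here. A few genes that the naming rule selects are not reported here.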

Additional observations from a re-analysis of the deposited data

Results flagged for a closer look

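Over 9 genes and 4 interactions, 9 results were called by the interaction test of limma on the log2 scale with Benjamini-Hochberg adjustment. In these a gene's difference between genotypes itself differed between durations or diets. Between 6 and 22 weeks on WD, the difference of EKO from WT grew by 2.75 for Mpeg1, 2.58 for Lyz2 and 1.68 for Cx3cr1. The share of all genes called higher was 5.87%. Over the same durations, the difference of EKO/hA-I from EKO moved by -2.72 for Lyz2, -2.67 for Mpeg1, -2.39 for Adgre1 and -1.97 for Cx3cr1. The share of all genes called lower was 4.51%. With any 1 library left out, Lyz2 stayed called in both tests and Cx3cr1 in the second. The other calls ended in at least 1 omission, that of Mpeg1 in the second test in 7. Both sets of values use the same EKO libraries on WD, so they are not independent of each other.

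The remaining pair concerns the ligands of the CSF1 receptor at 22 weeks. The difference of EKO/hA-I from EKO was higher on WD than on chow by 1.67 for Il34 and changed by -1.06 for Csf1. Of all genes, 15.6% were called higher and 18.6% lower, and the ligand calls are not above those shares. The Csf1 call ended without EKO/hA-I replicate 2 on WD (adjusted p = 0.052). The same 4 groups differed in markers of brown fat and skeletal muscle, and with terms for these markers the values were 1.00 for Il34 and -0.07 for Csf1, neither called.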

How the results depend on the processing

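Of 69 gene results called among the 9 genes and 26 comparisons, all 69 stayed called with no filter and with the replicate block, which pairs libraries of the same number. Calls ended in 1 result under rescaling, 3 with a pseudocount of 0.1, 3 with a pseudocount of 5, 4 with the term for low Y-linked transcripts, 20 in fits of the compared groups alone and 26 with terms for brown fat and skeletal muscle. Leaving out 1 library at a time ended the call in 106 of 468 cases. With the tissue terms Csf1 in EKO/hA-I on WD against chow reversed to 0.09. Several differences whose calls ended with these terms, such as Mpeg1 in the same comparison (2.07), stayed about as large, with wider errors. The cause was not tested.

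Counts of genes called moved as follows. A pseudocount of 5 gave 1 for EKO/hA-I against WT on chow at 22 weeks, 0 for WT on WD at 22 against 6 weeks, 5 for the interaction of EKO against WT with weeks and 1 for that with diet. Fits of the compared groups alone gave 0 for EKO against WT on chow at 22 weeks and on WD at 6 weeks, 4 and 0 for EKO/hA-I against WT on WD and chow at 22 weeks, 0 for diet in WT at 22 weeks, 0 for duration in WT on WD and 5 for the interaction of EKO against WT with weeks. The tissue terms gave 0 for EKO/hA-I against EKO on chow at 22 weeks, 0 and 1 for EKO/hA-I against WT on WD and chow, 0 for diet in EKO/hA-I, 0 for duration in WT on WD and in EKO on chow, 1 for the interaction of EKO against WT with diet and 0 for that of EKO/hA-I against EKO with diet. The term for low Y-linked transcripts gave 0 for duration in WT on WD.

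With each library left out in turn, the count was 4 to 8 for EKO against WT on chow at 22 weeks and 0 to 3 on WD at 6 weeks, 3 to 6 for EKO/hA-I against EKO (WD, 22 weeks), and 1 to 4 and 1 to 3 for EKO/hA-I against WT on WD and chow. It was 0 to 1 for diet in WT and 3 to 4 in EKO/hA-I at 22 weeks, 0 to 1 for duration in WT on WD and 1 to 3 in EKO on chow. For interactions it was 0 to 2 for EKO against WT with diet, 2 to 4 for EKO/hA-I against EKO with weeks and 1 to 3 with diet. For EKO against WT on WD at 22 weeks it stayed at 7. Depth limits Aif1, Il34, Cx3cr1 and Ccr2 most, whose lowest values rested on 18 to 28 reads.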
